A study of Mus musculus with 16 samples.

Results

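Transcripts of 7 purinergic genes were measured in retinal microglia sorted from mouse pups. The genes are the receptor genes P2ry12, P2ry13, P2ry6, P2rx4, P2rx7 and Adora3, and Entpd1, which encodes the cell-surface enzyme CD39. They were taken as every row of the deposited table of 54532 genes that carries 1 of these symbols, and all 7 passed the filter on low counts. The study set 8 libraries from pups with oxygen-induced retinopathy (OIR) beside 8 libraries from pups without it (nonOIR), all at postnatal day 17, to compare microglia of the diseased and the healthy retina. As background, pups in this model spend a period in high oxygen, which stops vessel growth, and on return to normal air the undersupplied retina turns hypoxic and forms abnormal vessels. Both groups were Cx3cr1CreERT2:Rosa26-tdTomato mice injected with tamoxifen at postnatal day 1, so the reporter marks cells in which Cx3cr1 was active when the drug was given. The sorted cells had the tdTomato signal, CD11b and low CD45, and had no Ly6C or Ly6G at the surface. In each group replicates 1 to 5 carry lane code 1 and replicates 6 to 8 carry lane code 2. The labels do not say what else this code marks. They also do not state that each library is from a different animal, so the spread that every p-value is set against is one between libraries and may in part be technical.

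ATP and ADP released by cells act on P2 receptors, of which the P2Y family couples to G proteins and the P2X family forms ion channels opened by ATP. Ectonucleotidases remove these signals: CD39 turns ATP and ADP into AMP, a second surface enzyme (CD73, encoded by Nt5e) turns AMP into adenosine, and adenosine acts on its own receptors. Microglia use P2Y12 to extend processes toward injury, P2Y6 to take up cell debris and P2X7 to trigger release of interleukin-1 beta, and loss of P2ry12 transcripts is often used as a sign that microglia have left their resting state.

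Library totals ran between 20771745 and 30001463 counts in OIR and between 13591651 and 27972049 counts in nonOIR. OIR replicate 1 stood apart on the second principal component, and results that change without it are given with and without it. Of 13 microglial marker genes, 3 fell in OIR, Tmem119 and Gpr34 among them, and 0 rose. Of the genes behind the sort, Cx3cr1 averaged 1760 ± 489 CPM (counts divided by the scaled library total, TMM) in OIR and 2262 ± 542 CPM in nonOIR (SD, n = 8 each, adjusted p = 0.210), while Ly6c2 and Ly6g had 0 counts in every library. Of 10 cell-division genes 9 rose in OIR, with summed levels of 88.1 to 561 CPM in OIR and 32.6 to 66.6 CPM in nonOIR. Border macrophage markers summed to 234 to 654 CPM in OIR and 121 to 429 CPM in nonOIR, and over all libraries 0 of 10 passed the test, but within lane code 2 alone 7 of 10 rose. Among those markers Stab1 averaged 188 ± 30.3 CPM in OIR and 120 ± 54.5 CPM in nonOIR, and Pf4 averaged 77.2 ± 75.0 CPM in OIR and 30.2 ± 28.1 CPM in nonOIR (SD, n = 8 each). Monocyte and granulocyte markers summed to 18.4 to 61.0 CPM in OIR and 6.71 to 14.7 CPM in nonOIR, with Fn1 the 1 of 3 tested genes that rose. Platelet markers, relevant because platelets also carry P2Y12, summed to 11.7 to 23.0 CPM in OIR and 11.7 to 25.4 CPM in nonOIR, with 0 of 2 tested genes passing. Most of that sum was 1 gene, Gp9, which averaged 10.1 CPM in OIR and 15.0 CPM in nonOIR. Both tested haemoglobin genes of the erythrocyte list rose, and the list summed to 1.87 to 292 CPM in OIR and 0 to 28.9 CPM in nonOIR. Of endothelial and pericyte markers 0 of 3 tested passed, of Müller glia and astrocyte markers 1 rose and 1 fell of 7, and of photoreceptor and neuron markers 1 fell of 10. The part of any of these in the results below was not tested.

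Set against annotated exon length, 1 receptor gene made up most of the receptor RNA. P2ry12 averaged 2597 ± 601 RPKM in OIR and 4460 ± 459 RPKM in nonOIR (SD, n = 8 each), where RPKM is CPM per kilobase of annotated exon. P2ry13, a second ADP receptor, averaged 828 ± 259 RPKM in OIR and 1348 ± 108 RPKM in nonOIR. P2ry6, the UDP receptor, averaged 169 ± 11.2 RPKM in OIR and 173 ± 9.83 RPKM in nonOIR. Entpd1 came next in both groups, with 106 ± 30.3 RPKM in OIR and 141 ± 22.0 RPKM in nonOIR. In nonOIR the lowest P2ry6 library, at 158 RPKM, lay below the highest Entpd1 library, at 165 RPKM, whereas in OIR these genes did not overlap. P2rx7, Adora3 and P2rx4 formed the low end, at 36.3 ± 5.33, 25.3 ± 2.40 and 31.5 ± 4.73 RPKM in OIR and at 45.0 ± 8.04, 32.8 ± 2.77 and 28.4 ± 2.96 RPKM in nonOIR. Neighbours in the order of these 3 genes overlapped in both groups, and the order of Adora3 and P2rx4 differed between the groups. That order rests on the length used, which joins all annotated exons (7025 bases for P2rx4 and 3729 for Adora3) and not the transcript expressed. In CPM P2rx4 averaged 221 in OIR and 200 in nonOIR, above Adora3 at 94.2 in OIR and 122 in nonOIR.

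Of the summed RPKM of 20 nucleotide and adenosine receptor genes, P2ry12 took 69.8 ± 1.67% in OIR and 72.7 ± 2.53% in nonOIR. P2ry13 took 21.8 ± 2.71% in OIR and 22.1 ± 2.15% in nonOIR. The sum itself was 3725 ± 859 RPKM in OIR and 6127 ± 464 RPKM in nonOIR, and the highest OIR library (4986 RPKM) lay below the lowest nonOIR library (5367 RPKM). P2ry6, with its near-equal levels, took 4.76 ± 1.16% of the sum in OIR and 2.85 ± 0.359% in nonOIR, and P2rx4 took 0.910 ± 0.340% in OIR and 0.465 ± 0.0463% in nonOIR (SD, n = 8 each). These shares are of a sum that was lower in OIR. Neither gene itself passed the edgeR test (adjusted p = 0.793 for P2ry6 and 0.358 for P2rx4).

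P2ry12 (ENSMUSG00000036353) and P2ry13 (ENSMUSG00000036362) are neighbours on mouse chromosome 3 (mm10), on the minus strand at chr3:59216272-59262871 and chr3:59207892-59210882, with 5389 bases between them. Both lie inside Med12l, which runs on the plus strand and shares 9 exonic bases with P2ry12 and 0 with P2ry13. Adora3 (ENSMUSG00000000562) is on the same chromosome at chr3:105870858-105908926, plus strand. The promoters of these 3 genes, the only ones of the 7 that fell in the test over all libraries, are shown with that of P2rx4 (ENSMUSG00000029470), the gene whose estimate was on the opposite side. Each runs 5′ to 3′ on the gene's strand from 250 bases before the annotated start to 50 after it (RefSeq, GRCm38.p6), at chr3:59262936-59263235 (minus) for P2ry12, chr3:59210833-59211132 (minus) for P2ry13, chr3:105904171-105904470 (plus) for Adora3 and chr5:122707294-122707593 (plus) for P2rx4. Capitals mark AGGAAG on either strand, which contains the shorter core GGAA bound by ETS-family factors such as PU.1.
P2ry12: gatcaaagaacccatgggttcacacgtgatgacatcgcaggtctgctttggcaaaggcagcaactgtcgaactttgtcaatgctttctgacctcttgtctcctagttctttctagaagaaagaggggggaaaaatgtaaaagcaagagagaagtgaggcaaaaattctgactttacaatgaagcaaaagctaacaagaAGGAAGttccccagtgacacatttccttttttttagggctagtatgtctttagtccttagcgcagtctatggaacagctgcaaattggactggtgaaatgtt
P2ry13: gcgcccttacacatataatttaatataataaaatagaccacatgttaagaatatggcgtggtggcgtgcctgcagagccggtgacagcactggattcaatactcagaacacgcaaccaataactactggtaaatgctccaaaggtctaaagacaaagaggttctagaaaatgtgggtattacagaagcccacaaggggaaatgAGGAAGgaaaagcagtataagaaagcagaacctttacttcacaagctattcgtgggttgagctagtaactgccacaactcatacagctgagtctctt
Adora3: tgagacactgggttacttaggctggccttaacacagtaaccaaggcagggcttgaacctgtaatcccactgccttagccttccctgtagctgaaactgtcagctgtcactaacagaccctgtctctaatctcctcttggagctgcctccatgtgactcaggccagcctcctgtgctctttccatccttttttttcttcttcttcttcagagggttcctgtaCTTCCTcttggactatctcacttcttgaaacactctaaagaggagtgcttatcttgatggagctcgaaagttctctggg
P2rx4: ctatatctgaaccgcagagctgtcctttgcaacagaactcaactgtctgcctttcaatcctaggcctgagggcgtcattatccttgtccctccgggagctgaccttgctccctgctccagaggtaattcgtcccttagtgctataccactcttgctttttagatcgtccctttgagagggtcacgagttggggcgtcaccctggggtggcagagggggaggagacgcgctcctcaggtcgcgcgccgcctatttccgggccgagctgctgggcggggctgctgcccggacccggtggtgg
The capitals begin at position -52 in P2ry12, -47 in P2ry13 and -29 in Adora3, counting the base before the annotated start as -1. The P2rx4 window holds no AGGAAG, although it holds the shorter GGAA on the opposite strand (ttcc). The letters AGGAAG were chosen after the sequences had been read. RefSeq promoters were matched for 6 of the 7 genes (all but P2ry6), at 8 annotated starts. AGGAAG stood in 5 of these 8, against 35.35% of 32851 mouse promoters of the same length. Besides the 3 starts marked above, AGGAAG stood at 1 start of P2rx7 and 1 start of Entpd1. P2rx7 and Entpd1 each also have a start without it. Neither gene passed the test over all libraries, but both fell in the fit with lane as a covariate, given below. Whether AGGAAG has a part in any of these falls was not tested. The longer GAGGAAG, which contains it, stood in 4 of 8 against 13.63%. It extends letters chosen from these same sequences, and P2rx7 and Entpd1 each count with more than 1 start. Neither share is therefore a test of enrichment. The hypoxia-response core in the forms ACGTG and GCGTG, each searched on both strands, stood in 1 of 8 (P2ry12, against 19.62% of promoters) and in 2 of 8 (P2ry13 and 1 start of Entpd1, against 32.39%). A match to such short letters is a description and not a binding site.

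Of the 7 genes 3 fell in OIR (P2ry12, P2ry13 and Adora3) and 0 rose, while 4.56% of the 12496 genes tested fell and 10.9% passed in either direction (edgeR quasi-likelihood test, adjusted p under 0.05). P2ry12 ran from 4494 through a median of 6372 to 8973 CPM in OIR, against 9538, 11738 and 12492 CPM in nonOIR. Every OIR library lay below every nonOIR library, an arrangement found for 0.688% of the genes tested. The log2 fold change was -0.78 ± 0.12 (SE, n = 8 each, adjusted p = 0.000617), which leaves 58.2% of the nonOIR mean. In RNA from pooled cells, fewer cells of a type and less RNA per cell cannot be told apart.

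P2ry13, the ADP receptor gene beside it, ran from 1114 through a median of 2279 to 2917 CPM in OIR, against 3168, 3299 and 3944 CPM in nonOIR. Again no OIR library reached the lowest nonOIR library. P2ry13 changed by -0.70 ± 0.16 on the log2 scale (SE, n = 8 each, adjusted p = 0.00850). The 8 nonOIR libraries were close together for this gene, with an SD of 274 CPM, while the 8 OIR libraries, pooled over lane codes, had an SD of 656 CPM. Within lane code 1 the SD was 271 CPM in each group. Within lane code 2 it was 255 CPM in OIR and 19.8 CPM in nonOIR.

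**Figure D1:**
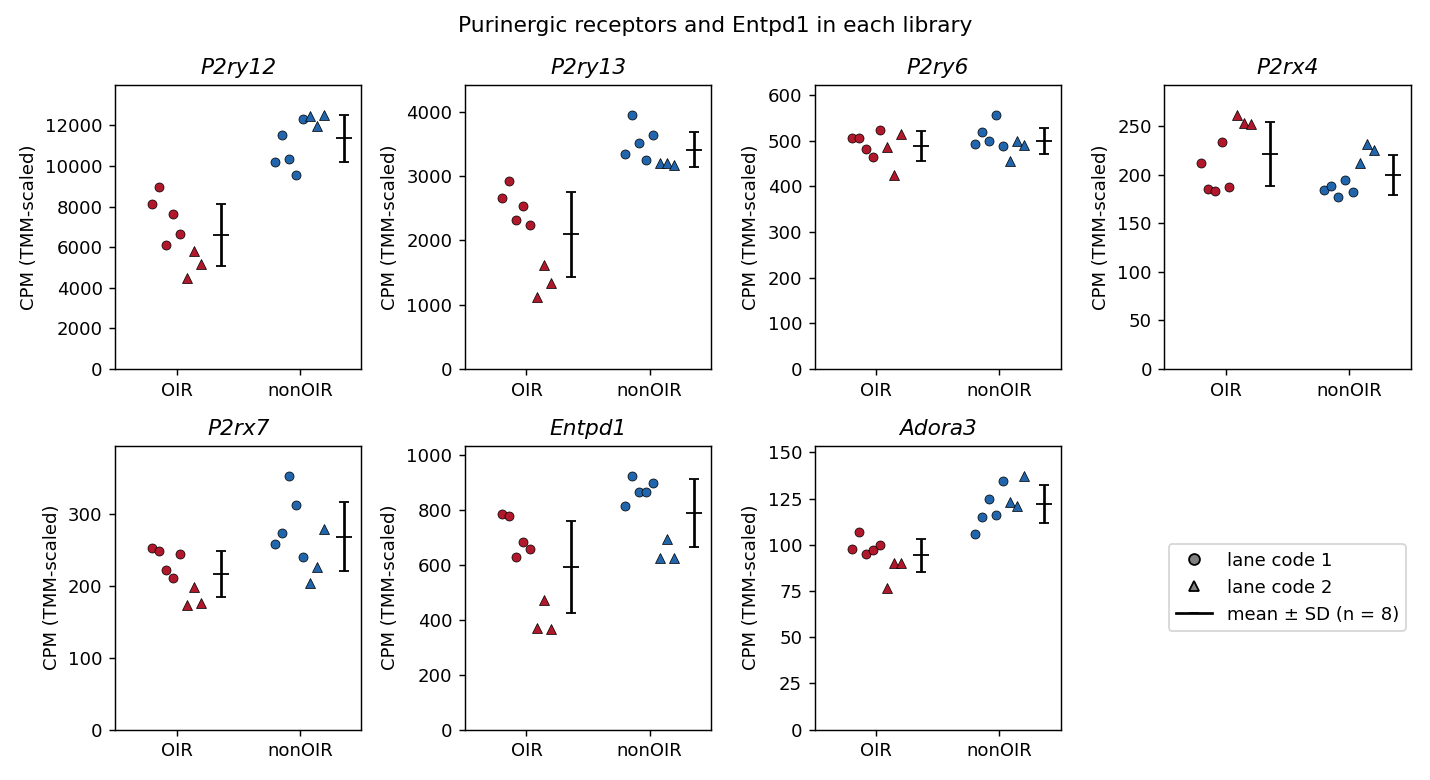
Level of each of the 7 genes in every library (vertical axis, TMM-scaled CPM, starting at 0), OIR in red left of nonOIR in blue, with lane code 1 as circles, lane code 2 as triangles and the bar giving the mean ± SD of 8 libraries. For P2ry12 and P2ry13 the OIR points lie below all nonOIR points, and the OIR triangles are the lowest of all.

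Med12l, a Mediator-subunit gene that encloses both receptor genes, also fell, with 44.8 ± 11.0 CPM in OIR and 72.5 ± 18.5 CPM in nonOIR (SD, n = 8 each, log2 fold change -0.69 ± 0.17, adjusted p = 0.0116). Because strand is not recorded by this kit, reads in the shared stretch cannot be assigned by direction. Within lane code 1 the Med12l difference was -0.25 (adjusted p = 0.357) and within lane code 2 it was -1.33 (adjusted p = 0.00118). P2ry14, the UDP-glucose receptor gene that also lies within Med12l, averaged 1.22 ± 1.33 CPM in OIR and 0.958 ± 1.38 CPM in nonOIR (adjusted p = 0.874).

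P2ry6 (ENSMUSG00000048779, chr7:100937630-100974649, minus strand) ran from 425 through a median of 496 to 524 CPM in OIR, against 456, 495 and 555 CPM in nonOIR. The groups overlapped almost fully. The log2 difference was -0.034, with a 95% interval of -0.16 to 0.095 (adjusted p = 0.793), and its sign turned under scaling by library size alone (0.036).

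Adora3, the gene of an adenosine receptor that couples to inhibitory G proteins, ran from 76.6 through a median of 96.1 to 107 CPM in OIR, against 106, 122 and 137 CPM in nonOIR. Here 7 of 8 OIR libraries lay below all nonOIR libraries, and the remaining one barely overlapped the lowest of them. The log2 fold change was -0.38 ± 0.08 (SE, n = 8 each, adjusted p = 0.00506). Tmigd3, on the same strand, shares 779 exonic bases with Adora3, which is 20.9% of its exon length, so reads there cannot be assigned to either gene. The counts listed for Tmigd3 were low, at 1.15 ± 0.743 CPM in OIR and 1.39 ± 0.348 CPM in nonOIR (SD, n = 8 each).

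The 2 channel genes are neighbours on chromosome 5, plus strand: P2rx7 (ENSMUSG00000029468, chr5:122643911-122691432) and P2rx4 (chr5:122707544-122729738), with 16111 bases between them. P2rx7, whose channel drives inflammasome activation at high ATP, ran from 174 through a median of 217 to 254 CPM in OIR, against 204, 266 and 353 CPM in nonOIR. Pooled over lanes most OIR libraries lay low in the nonOIR range, with overlap between the groups. Its log2 difference was -0.31, with a 95% interval of -0.55 to -0.074, and did not pass the test (adjusted p = 0.0866). With lane as a covariate it was -0.32 and passed (adjusted p = 0.0128), and without nonOIR replicate 6 it passed as well (-0.36, adjusted p = 0.0466). Within lane code 2 P2rx7 ran from 174 to 199 CPM in OIR and from 204 to 279 CPM in nonOIR (n = 3 each). That difference did not pass (-0.33, adjusted p = 0.119 by edgeR).

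P2rx4, a channel gene tied in other tissues to pain signalling by activated microglia, ran from 183 through a median of 223 to 261 CPM in OIR, against 178, 192 and 232 CPM in nonOIR. Pooled over lanes the groups overlapped across most of their range. Within lane code 2 the values were 253 to 261 CPM in OIR and 213 to 232 CPM in nonOIR (n = 3 each). That difference did not pass (0.24, adjusted p = 0.0988 by edgeR). Within lane code 1 the groups overlapped (0.12, adjusted p = 0.509 by edgeR). The pooled log2 difference was 0.15, with a 95% interval of -0.051 to 0.35 (adjusted p = 0.358), and 0.14 with lane as a covariate (adjusted p = 0.0934).

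Entpd1 (ENSMUSG00000048120, chr19:40612366-40741602, plus strand) ran from 367 through a median of 642 to 785 CPM in OIR, against 624, 840 and 923 CPM in nonOIR. Pooled over lanes the groups overlapped, and the log2 difference of -0.41, with a 95% interval of -0.74 to -0.081, did not pass (adjusted p = 0.104). It passed at -0.52 without OIR replicate 1 and nonOIR replicate 8 together (adjusted p = 0.0433). It did not pass without OIR replicate 1 alone (-0.48, adjusted p = 0.0546) or without nonOIR replicate 8 alone (-0.45, adjusted p = 0.0852). Over all 16 omissions of a single library Entpd1 never passed (adjusted p between 0.0546 and 0.190). Unlike OIR replicate 1 (-50.75), nonOIR replicate 8 did not stand apart on the second principal component (-1.10). Within each lane code, however, the groups did not overlap. In lane code 1 Entpd1 averaged 706 ± 71.7 CPM in OIR and 873 ± 41.1 CPM in nonOIR (SD, n = 5 each, -0.30, adjusted p = 0.0459 by edgeR). In lane code 2 it averaged 403 ± 60.0 CPM in OIR and 648 ± 39.2 CPM in nonOIR (SD, n = 3 each, -0.64, adjusted p = 0.00519 by edgeR). Separation in both lanes with OIR lower was found for 1.38% of the genes tested. With lane as a covariate the Entpd1 difference was -0.45 (adjusted p = 0.000613).

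In that fit with lane as a covariate 5 of the 7 genes fell (P2ry12, P2ry13, Adora3, P2rx7 and Entpd1) and 0 rose, beside 7.59% of all genes tested that fell and 17.3% that passed in either direction. In the authors' deposited table, which has 1 comparison over all libraries, the adjusted p was 2.03e-07 for P2ry12, 0.000757 for P2ry13 and 2.48e-05 for Adora3. There it was 0.0674 for P2rx7, 0.0818 for Entpd1, 0.331 for P2rx4 and 0.846 for P2ry6.

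The falls of P2ry12 and P2ry13 were larger in lane code 2 than in lane code 1. P2ry12 averaged 7492 ± 1148 CPM in OIR and 10781 ± 1117 CPM in nonOIR in lane code 1 (SD, n = 5 each, log2 fold change -0.52, adjusted p = 0.0186 by edgeR), which is 69.5% of nonOIR. In lane code 2 it averaged 5149 ± 649 CPM in OIR and 12314 ± 302 CPM in nonOIR (SD, n = 3 each, -1.21, adjusted p = 0.000118 by edgeR), which is 41.8% of nonOIR. The test of this difference between lanes gave -0.73 with an adjusted p of 0.0507, and -0.69 with an adjusted p of 0.0342 under scaling by library size alone, so its call depends on the scaling.

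P2ry13 averaged 2533 ± 271 CPM in OIR and 3540 ± 271 CPM in nonOIR in lane code 1 (SD, n = 5 each, -0.48, adjusted p = 0.00878 by edgeR). In lane code 2 it averaged 1358 ± 255 CPM in OIR and 3190 ± 19.8 CPM in nonOIR (SD, n = 3 each, -1.19, adjusted p = 0.000373 by edgeR). The difference between lanes was -0.75 (adjusted p = 0.0312), and 0.496% of all genes passed this test. Adora3 passed within lane code 2 (-0.52, adjusted p = 0.0173) and not within lane code 1 (-0.26, adjusted p = 0.126), but the difference between the lanes did not pass (-0.31, adjusted p = 0.325). For P2ry6, P2rx4, P2rx7 and Entpd1 the difference between lanes did not pass either, with adjusted p between 0.204 and 0.959. In lane code 1, 3 of the 7 genes fell (P2ry12, P2ry13 and Entpd1), beside 1.13% of all genes that fell and 3.33% that passed in either direction. In lane code 2, 4 of the 7 fell (the same with Adora3), beside 5.77% that fell and 15.4% that passed.

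Marker genes are given by lane code beside these values, without a test between the lanes. In lane code 2 the border macrophage markers summed to 623 to 654 CPM in OIR and 121 to 305 CPM in nonOIR, and 7 of 10 rose (Stab1, Mrc1, F13a1, Lyve1, Cbr2, Ms4a7 and Folr2) while 0 fell. In lane code 1 they summed to 234 to 379 CPM in OIR and 146 to 429 CPM in nonOIR, and 0 of 9 tested passed. Stab1, a scavenger receptor gene of such macrophages, averaged 170 CPM in OIR and 64.9 CPM in nonOIR in lane code 2 (edgeR adjusted p = 0.000429), against 199 CPM in OIR and 154 CPM in nonOIR in lane code 1 (edgeR adjusted p = 0.246). The cell-division list summed to 405 to 561 CPM in OIR and 32.6 to 59.3 CPM in nonOIR in lane code 2, with 10 of 10 genes higher past the threshold, and to 88.1 to 391 CPM in OIR and 36.3 to 66.6 CPM in nonOIR in lane code 1, with 8 of 10. Of the 13 microglial markers 6 fell and 1 rose in lane code 2, and 2 fell and 0 rose in lane code 1. Of 3 platelet markers tested in lane code 2, 1 rose (Ppbp) and 1 fell (Gp9), and in lane code 1 0 of 2 passed. The part of these markers in the lane differences of P2ry12 and P2ry13 was not tested.

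**Figure D2:**
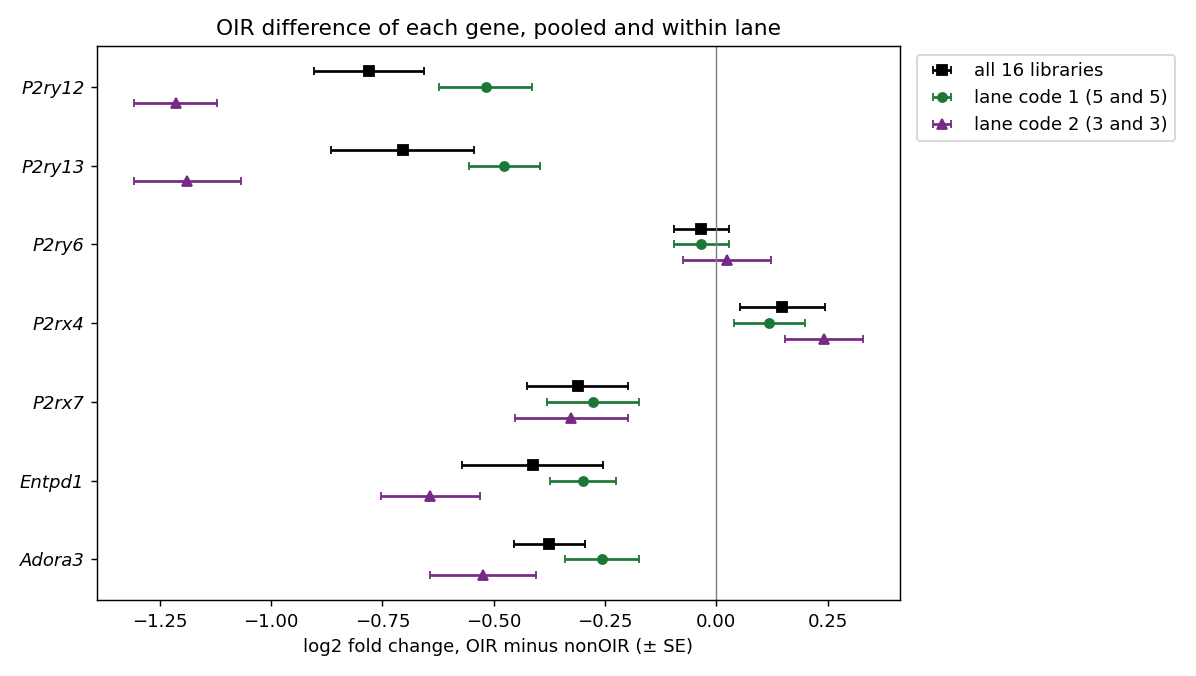
Log2 fold change (horizontal axis, OIR minus nonOIR, bars ± SE from edgeR) of each gene over all 16 libraries (black squares), in lane code 1 (green circles, 5 and 5 libraries) and in lane code 2 (purple triangles, 3 and 3 libraries). The triangles of P2ry12 and P2ry13 lie at -1.21 and -1.19, left of their circles at -0.52 and -0.48, while the P2ry6 points lie around 0.

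Set side by side within a group, the lanes also differed in level. Among OIR libraries lane code 2 was below lane code 1 for P2ry12 (-0.54, adjusted p = 0.00761), P2ry13 (-0.90), Entpd1 (-0.81) and P2rx7 (-0.37) and above it for P2rx4 (0.35), all past the threshold, where 19.2% of genes passed. Among nonOIR libraries, where 20.2% of genes passed, lane code 2 was below lane code 1 for Entpd1 (-0.43, adjusted p = 0.00133) and above it for P2rx4 (0.27, adjusted p = 0.0355), and the other 5 genes did not pass. Entpd1 and P2rx4 thus moved with the lane code in both groups, each in 1 direction. What lies behind the lane code cannot be told apart from sequencing lane in these labels.

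Ratios of 2 genes within a library do not depend on how libraries are scaled, and 4 were compared by two-sided exact permutation tests adjusted over the 4. The ratio of P2ry12 to P2ry13 counts was 3.24 in OIR and 3.32 in nonOIR (geometric means), and ran between 1.40 and 2.01 in OIR and between 1.55 and 1.98 in nonOIR on the log2 scale. These ranges lay over each other (log2 difference -0.035, exact permutation adjusted p = 0.725). The split in each group followed the lane code: in lane code 1 the log2 ratio ran between 1.40 and 1.62 in OIR and between 1.55 and 1.76 in nonOIR, and in lane code 2 between 1.84 and 2.01 in OIR and between 1.90 and 1.98 in nonOIR.

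Counts of P2ry12 over P2ry6 stood at 13.2 to 1 in OIR and 22.6 to 1 in nonOIR, a log2 difference of -0.77 (exact permutation adjusted p = 0.00124), with 7 of 8 OIR libraries below all nonOIR libraries. For P2ry12 over Entpd1 the ratios were 11.3 in OIR and 14.5 in nonOIR, a log2 difference of -0.35 (exact permutation adjusted p = 0.0435). That call was lost when 1 library was left out in 8 of 16 cases (OIR replicates 1, 3, 4 and 5, and replicates 5, 6, 7 and 8 of nonOIR), with exact permutation adjusted p between 0.0526 and 0.0671. Within lane code 1 the difference was -0.22 and passed (exact permutation adjusted p = 0.0317). For P2rx4 over P2rx7 the ratios were 1.02 in OIR and 0.750 in nonOIR, a log2 difference of 0.45 that did not pass (exact permutation adjusted p = 0.0514). It passed without OIR replicate 2 or nonOIR replicates 6 or 7 (lowest exact permutation adjusted p = 0.0394) and within lane code 1 (0.38, exact permutation adjusted p = 0.0317). Within lane code 2, with 3 libraries against 3, an exact test cannot go below 0.1.

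**Figure D3:**
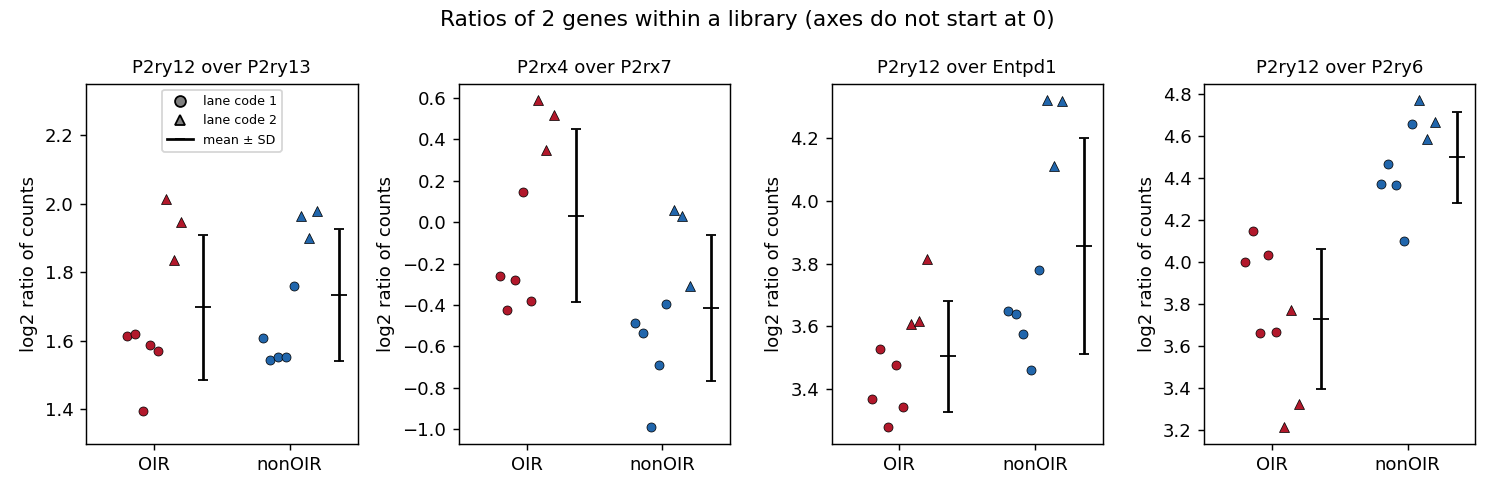
Log2 ratio of the counts of 2 genes in each library (vertical axes, which do not start at 0), OIR in red left of nonOIR in blue, lane code 1 as circles and lane code 2 as triangles, bars mean ± SD of 8 libraries. P2ry12 over P2ry13 splits by lane code and hardly by group (difference -0.035), while P2ry12 over P2ry6 is lower in OIR (difference -0.77).

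Other genes of the purinergic pathway were taken from 6 lists of 63 genes, of which 62 were in the table and 38 passed the filter on low counts. Of these 38, 4 rose (10.5%, beside 6.39% of all genes) and 4 fell (10.5%, beside 4.56%). Their median log2 fold change was 0.099, beside -0.031 over all genes tested. Under scaling by library size alone 7 rose and 2 fell, and over all genes that scaling gave 1020 higher and 364 lower, against 798 higher and 570 lower.

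Among 14 other receptor genes 5 were tested, and 1 passed. P2ry10b, a lysophospholipid receptor homologue grouped with P2Y by name, averaged 27.7 ± 6.19 CPM in OIR and 47.1 ± 17.0 CPM in nonOIR (SD, n = 8 each, -0.77 ± 0.21, adjusted p = 0.0278). It did not pass in lane code 1 (adjusted p = 0.235) or under library size alone (adjusted p = 0.0513). It also did not pass when OIR replicate 4 or 6, or replicate 6 or 7 of nonOIR, was left out (highest adjusted p = 0.0610), or OIR replicate 1 and nonOIR replicate 8 together (adjusted p = 0.0613). P2rx1, the highest of the other P2X genes, averaged 61.3 ± 16.0 CPM in OIR and 55.9 ± 14.1 CPM in nonOIR (adjusted p = 0.702). Adora1, the highest of the other adenosine receptor genes, averaged 21.2 ± 5.08 CPM in OIR and 17.9 ± 4.13 CPM in nonOIR (adjusted p = 0.413). P2ry2, named here after its values were seen, did not pass over all libraries (0.94, adjusted p = 0.112) or within lane code 1 (0.37, adjusted p = 0.745). Within lane code 2 it averaged 10.4 CPM in OIR and 2.63 CPM in nonOIR and passed (n = 3 each, 2.02, adjusted p = 0.0188). P2rx2 and P2ry10 had 0 counts in every library.

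Of the 19 enzyme genes 11 were tested, 2 rose and 1 fell. Entpd5, a nucleotidase of the endoplasmic reticulum, averaged 34.5 ± 5.75 CPM in OIR and 20.4 ± 5.25 CPM in nonOIR (SD, n = 8 each, 0.76 ± 0.16, adjusted p = 0.00575). Ada, which deaminates adenosine, averaged 6.10 ± 1.77 CPM in OIR and 3.28 ± 0.915 CPM in nonOIR (0.90 ± 0.24, adjusted p = 0.0238), and did not pass without OIR replicate 8 (adjusted p = 0.0516) or with no filter on low counts (adjusted p = 0.0659). Pnp, which splits inosine further, averaged 103 ± 13.2 CPM in OIR and 133 ± 8.27 CPM in nonOIR (-0.36 ± 0.08, adjusted p = 0.00759), although its near-identical copy Pnp2 makes the split of reads between them uncertain. Entpd5, Ada and Pnp passed within lane code 2 and not within lane code 1. Nt5e, named here after its values were seen because it completes the path to adenosine, averaged 0.853 ± 1.62 CPM in OIR and 1.88 ± 1.70 CPM in nonOIR (adjusted p = 0.593).

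Of the 14 genes of nucleotide release and nucleoside transport 7 were tested and 1 fell. Slc29a1, an equilibrative nucleoside transporter of the cell surface, averaged 210 ± 19.6 CPM in OIR and 266 ± 22.0 CPM in nonOIR (SD, n = 8 each, -0.34 ± 0.07, adjusted p = 0.00632), and did not pass within lane code 2 (adjusted p = 0.135). Slc29a3, the lysosomal transporter and the highest gene of that list, averaged 502 ± 146 CPM in OIR and 640 ± 137 CPM in nonOIR (adjusted p = 0.231).

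Of the 16 signalling genes 15 were tested, 2 rose and 1 fell. Il1b, the cytokine released downstream of P2X7, averaged 15.3 ± 4.16 CPM in OIR and 7.48 ± 2.44 CPM in nonOIR (SD, n = 8 each, 1.03 ± 0.22, adjusted p = 0.00505), and did not pass within lane code 2 (adjusted p = 0.180). Gnb2, a G protein beta subunit, averaged 199 ± 21.5 CPM in OIR and 161 ± 14.1 CPM in nonOIR (0.31 ± 0.08, adjusted p = 0.0198) and passed in neither lane alone. Kcnk13, the THIK-1 potassium channel that P2Y12 opens in microglia, averaged 250 ± 24.6 CPM in OIR and 309 ± 36.2 CPM in nonOIR (-0.31 ± 0.08, adjusted p = 0.0254). The Kcnk13 call was lost in lane code 1 (adjusted p = 0.315), under library size alone (adjusted p = 0.0855) and with no filter on low counts (adjusted p = 0.0737). It was also lost when OIR replicate 3, 6 or 7, or replicate 7 of nonOIR, was left out (highest adjusted p = 0.0674). Gnai2, the highest of the list and part of the inhibitory G protein that P2Y12 uses, averaged 1295 ± 104 CPM in OIR and 1127 ± 151 CPM in nonOIR (adjusted p = 0.139). Within lane code 2 Gnai2 was higher in OIR and passed (0.41, adjusted p = 0.0199), and within lane code 1 it did not (0.12, adjusted p = 0.374).

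**Figure D4:**
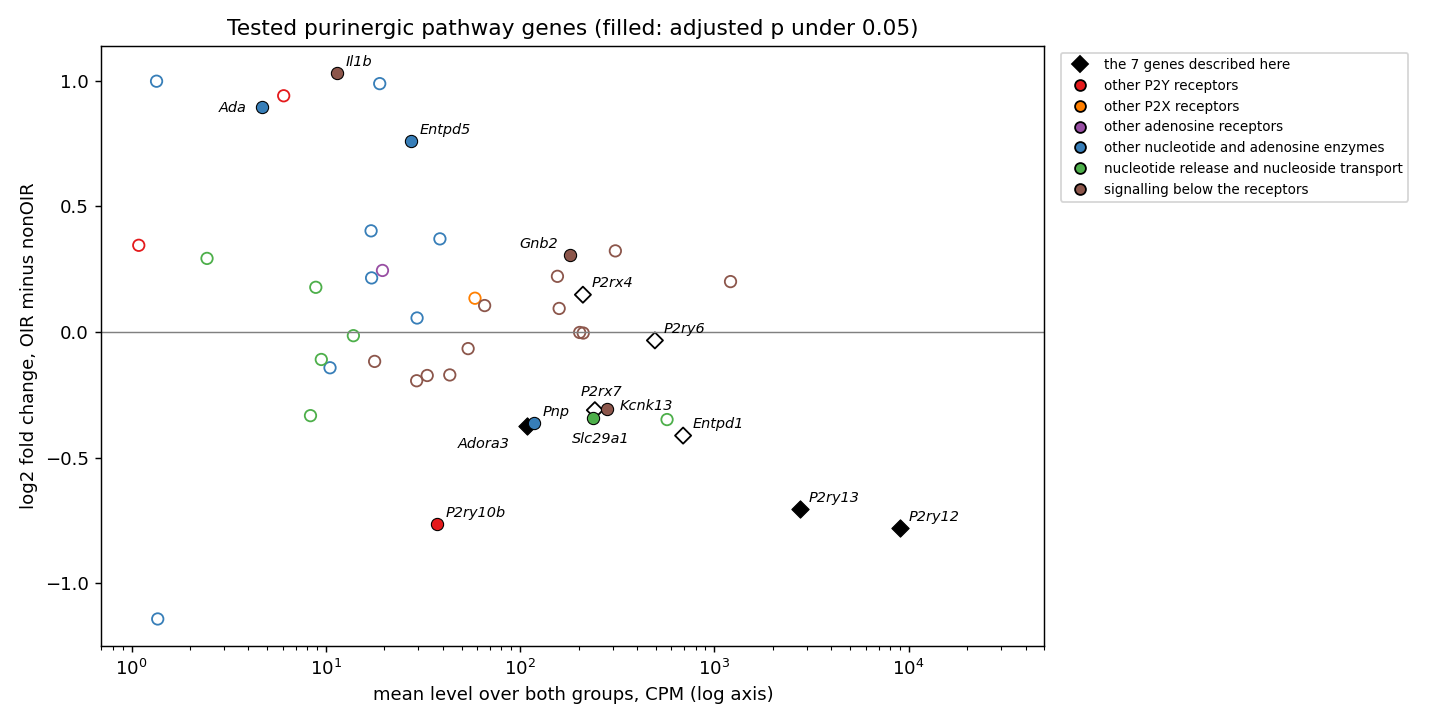
Log2 fold change (vertical axis, OIR minus nonOIR) against mean level over both groups (horizontal log axis, CPM) for the 7 genes (black diamonds) and the 38 tested pathway genes (circles coloured by list); filled symbols passed the test at an adjusted p under 0.05. P2ry12 and P2ry13 lie at the lower right, at high level and at -0.78 and -0.70, with 4 filled circles above 0 and 4 below.

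Patterns over the 16 libraries were compared as the mean gap between log2 levels, each centred on the gene's own mean, among 7809 genes of at least 10 CPM. These gaps are a description, and the points share libraries, groups and lanes. The closest genes were Liph (0.109), March1 (0.119) and Rgs2 (0.119) for P2ry12, beside a median gap of 0.462 over all genes, and Slc44a2 (0.135), H2-Oa (0.142) and Prkab1 (0.143) for P2ry13. For Entpd1 they were Ctsf (0.0770), Il16 (0.0966) and Ptgs1 (0.0977), and for Adora3 Syngr2 (0.0588), Crlf3 (0.0672) and H2-DMa (0.0782). Slco2b1 (0.0902) was among the 3 closest to P2rx7. P2rx4 lay closest to March2 (0.0834), Ugp2 (0.0850) and Ptp4a2 (0.0853), and P2ry6 to Pdlim4 (0.0694), Vps72 (0.0745) and Snx17 (0.0805). P2ry6 lay on average only 0.0627 from its own mean, less than any P2ry6 gap given here. These gaps therefore show no pattern shared with P2ry6. Among the 7 genes themselves the smallest gaps were those of P2ry13 with Entpd1 (0.166), P2ry6 with P2rx7 (0.170) and P2rx7 with Adora3 (0.170). The gap of P2ry12 with P2ry13 was 0.174. Since P2ry6 varied so little, its small gap with P2rx7 shows no shared pattern either. The widest was that of P2ry12 with P2rx4 (0.504).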

How the data were processed

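Per the labels' protocols, cDNA was made from total RNA (750 pg) with the SMARTer v4 kit, amplified for 12 cycles, tagmented by Nextera XT and read as single 50-base reads. The submitters' processing notes list, with no roles, STAR 2.6.0b-1, featureCounts 1.6.2, FastQC 0.72, DESeq2 2.11.40.2 and the mm10 build, and no source used here gives the annotation. The counts deposited are raw whole numbers for each gene, per the file headers. Signal columns called normalized, as the authors deposited them, are counts divided by 1 factor per library. Besides these, the authors' deposited table gives a log2 fold change, a Wald score and p-values, of which only the adjusted p-values were used. Without molecular identifiers, reads are not independent molecules.

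Low counts were removed by filterByExpr. The remaining 12496 genes were scaled by TMM and compared by the two-sided quasi-likelihood test of edgeR 4.0.16 (robust, R 4.3.3), with p-values adjusted by Benjamini-Hochberg and called under 0.05. Every adjusted p in the text is from this test unless an exact permutation test or the authors' table is named. CPM are TMM-scaled, RPKM divide them by the exon length of GENCODE M21 (54495 identifiers matched), and ratios had 0.5 added to each count. The lowest chi-square per gene between libraries of a group was 15.3, so none was treated as a repeat. Groups and lane codes came from the labels, and replicate numbers were not taken to pair libraries. Pathway genes are named where they passed or were the highest of their list. Locus neighbours, sort genes, the highest markers and the 3 most alike genes were also eligible, and a few of these are not reported here. The 7 genes and all lists were chosen with earlier results of these data known. Alternatives covered scaling, filtering, pseudocount, lane, replicate number, DESeq2 1.42.0, limma-voom 3.58.1 and the omission of libraries.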

Additional observations from a re-analysis of the deposited data

Results flagged for a closer look

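The fall of P2ry13 in OIR differed between the lane codes. Its log2 fold change was -1.19 in lane code 2 (3 libraries a group) and -0.48 in lane code 1 (5 libraries a group), and the interaction was -0.75 (edgeR adjusted p = 0.0312). Of the border macrophage markers 7 of 10 passed in lane code 2, all higher in OIR, and 0 of 9 tested passed in lane code 1. The difference between lanes in these markers, and their part in that of P2ry13, was not tested. No library stood out by Dixon's test in any of 40 sets of 8 values examined (0 flags), where chance gives about 1 in 20. The 8 libraries of a group hold both lane codes, and a split by lane code makes a single library harder to flag. The 0 flags therefore do not show that no library deviates.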

How the results depend on the processing

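The falls of P2ry12 and P2ry13 stayed past the threshold in each alternative tried, as did that of Adora3 except within lane code 1 (-0.26). Without 1 library at a time the log2 fold change ran between -0.86 and -0.70 for P2ry12, -0.79 and -0.60 for P2ry13, -0.40 and -0.32 for Adora3, -0.049 and 0.0027 for P2ry6 (sign turned without OIR replicate 7), 0.13 and 0.20 for P2rx4, -0.36 and -0.24 for P2rx7, and -0.48 and -0.33 for Entpd1. The P2ry6 sign also turned under library size alone (0.036) and in lane code 2 (0.025). P2rx7 passed under upper-quartile scaling (-0.34), lane as a covariate (-0.32) and the replicate block (-0.31). Entpd1 passed with lane as a covariate (-0.45), in lane code 1 (-0.30), in lane code 2 (-0.64), under the replicate block (-0.45) and without OIR replicate 1 and nonOIR replicate 8 (-0.52). The P2ry12 interaction passed under library size alone (-0.69). Genes called over the whole table numbered 1368, against 2159 with lane as a covariate, 417 in lane code 1 and between 935 and 1556 without 1 library. Pathway genes called higher numbered 7 under library size alone, 2 in lane code 1, 7 in lane code 2 and between 3 and 5 without 1 library. Those called lower numbered 2 under library size alone, 1 in lane code 1, and between 2 and 4 without 1 library, with 2 when OIR replicate 6 or nonOIR replicate 7 was left out. The P2ry12 to P2ry13 log2 ratio difference turned to 0.012 without OIR replicate 1 and nonOIR replicate 8, and ran between -0.080 and 0.0080 without 1 library (positive without OIR replicate 3). The P2rx4 to P2rx7 ratio difference passed in lane code 1 (0.38) and under the replicate block (0.45) and ran between 0.36 and 0.51 without 1 library. The P2ry12 to Entpd1 ratio difference did not pass in lane code 2 (-0.57), where 3 against 3 libraries cannot, or without both named libraries (-0.27). It passed in lane code 1 (-0.22) and ran between -0.41 and -0.29. The P2ry12 to P2ry6 ratio difference likewise did not pass in lane code 2 (-1.24) and ran between -0.83 and -0.70. The cause of these changes was not tested.

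Libraries with the same replicate number showed correlated deviations of -0.0156 to 0.202, and of -0.072 to 0.064 once lane means were removed, so the numbers were not taken as pairs; 2 of 8 correlated best with their own number, and the block called 1679 genes. Levels near 1 CPM, such as those of Nt5e and P2ry14, rest on few counts.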
